A study of Homo sapiens with 16 samples.

Results

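The 44 genes described here are interferon-stimulated effector genes, chosen by symbol from a list of genes that interferons induce and whose products act against viruses. Every one of the 44 was found among the 31496 genes obtained when the deposited transcript counts were summed to GENCODE 29 symbols, had at least 10 counts in at least 2 of 16 libraries, and was among the 19836 genes tested. Of the 44, 38 had 10 counts or more in each of the 16 libraries. SAMD9L reached 10 counts in 2 libraries only, both from the group in which it was highest, so it was testable through that group alone.

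The RNA came from HCT116, a human colon cancer cell line, and was polyadenylated RNA sequenced with a strand-specific protocol. Knockdown groups carried CRISPR interference, where Cas9 that cannot cut brings a repressor domain to a promoter, here that of NORAD, a long noncoding RNA. The 24 h time point had 2 knockdown and 2 wild-type libraries and each later one had 3 of both, with 28391784 to 51853876 estimated counts each. The labels give 1 induction protocol for all samples, doxycycline at 0.5 µg/ml, do not say whether wild-type cells received it, and do not say whether a knockdown line was 1 clone or whether replicates were separate cultures, so p-values cover only how these libraries differ, and that spread may be technical. The series set out to find expression and splicing changes after NORAD depletion.

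Interferons are secreted proteins made when a cell senses foreign or misplaced nucleic acid. Type I and type III interferons bind cell-surface receptors whose kinases phosphorylate STAT proteins, and these join IRF9 in a complex that enters the nucleus. The complex binds the interferon-stimulated response element, a short repeat in the promoters of many genes, and IRF3 and IRF7 can bind related sites on their own. The proteins made from these genes bind or cut viral RNA, block entry and budding at membranes, or tag proteins with ubiquitin-like marks, and intestinal epithelium is a tissue where type III interferon is prominent.

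The core of the response element, read as GAAA, any 2 bases and GAAA again, was searched on both strands in RefSeq windows (GRCh38.p14) that run from 250 bases before to 50 bases after each gene's start. Windows were found for 37 of the 44 genes, and 27 of those 37 (73.0%) held at least 1 match, against 1195 of 27305 genes in all (4.38%). Of the 27 genes with a match, 14 had 2 matches or more in 1 window. Stretches of 170 bases that end just before the start are printed for 7 genes that stand for different patterns of expression in these libraries, with the matches in capitals. TTTC at both ends marks a match on the other strand.

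IFIT1: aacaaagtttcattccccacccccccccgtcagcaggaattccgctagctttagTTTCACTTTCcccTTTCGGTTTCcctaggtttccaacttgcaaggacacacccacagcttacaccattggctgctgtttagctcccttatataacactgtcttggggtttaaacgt
IFI6: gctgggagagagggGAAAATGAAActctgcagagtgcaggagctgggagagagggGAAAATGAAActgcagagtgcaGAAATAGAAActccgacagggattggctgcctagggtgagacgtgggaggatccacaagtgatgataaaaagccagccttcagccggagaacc
BST2: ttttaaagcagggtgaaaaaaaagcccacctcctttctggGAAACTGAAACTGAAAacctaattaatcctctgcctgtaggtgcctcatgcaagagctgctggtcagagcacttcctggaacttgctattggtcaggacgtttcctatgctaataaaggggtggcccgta
PARP9: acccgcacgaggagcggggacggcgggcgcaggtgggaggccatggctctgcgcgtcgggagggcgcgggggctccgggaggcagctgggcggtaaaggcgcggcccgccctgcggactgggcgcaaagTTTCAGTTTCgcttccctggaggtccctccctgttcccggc
IFITM3: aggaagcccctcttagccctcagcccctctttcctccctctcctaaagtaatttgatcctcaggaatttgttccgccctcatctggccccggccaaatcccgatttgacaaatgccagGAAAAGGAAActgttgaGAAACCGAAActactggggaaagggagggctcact
ISG20: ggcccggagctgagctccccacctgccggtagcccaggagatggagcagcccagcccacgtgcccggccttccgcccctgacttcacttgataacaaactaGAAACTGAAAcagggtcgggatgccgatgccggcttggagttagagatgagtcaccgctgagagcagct
OAS1: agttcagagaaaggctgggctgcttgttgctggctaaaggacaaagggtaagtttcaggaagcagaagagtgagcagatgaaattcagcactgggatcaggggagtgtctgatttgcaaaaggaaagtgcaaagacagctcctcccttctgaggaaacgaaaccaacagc

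The IFIT1 stretch (chr10:89392453-89392622, plus strand) and the IFI6 stretch (chr1:27672193-27672362, minus strand) belong to genes that were higher in knockdown at 24 h, 48 h and 96 h, with 2 and 3 matches. BST2 (chr19:17405631-17405800, minus strand) holds 2 overlapping matches and PARP9 (chr3:122564301-122564470, minus strand) holds 1, and both genes differed in their knockdown effect between times. The PARP9 match lies at chr3:122564332-122564341 and is shared with DTX3L, the gene that starts from the same stretch in the opposite direction. IFITM3 (chr11:320861-321030, minus strand) holds 2 matches and was the gene of highest level per length, and ISG20 (chr15:88638846-88639015, plus strand) holds 1 and is a gene that did not pass at 24 h and was higher later. OAS1 (chr12:112906792-112906961, plus strand) holds no match to the searched pattern in its window and was 1 of the genes with the largest rises at 24 h. Near its end the OAS1 stretch does hold 2 copies of GAAA with 1 base between them, a spacing the search did not cover. Of the 27 genes with a match 23 passed as higher at 24 h, and so did 7 of the 10 without a match of that spacing, OAS1 among them. Over all genes tested, 5.14% passed as higher at 24 h. The 23 include IFI27 and the 7 include SAMD9L, which passed the count filter through knockdown libraries only, so nothing is read from their calls. Whether a match goes with a rise was not tested.

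**Figure D1:**
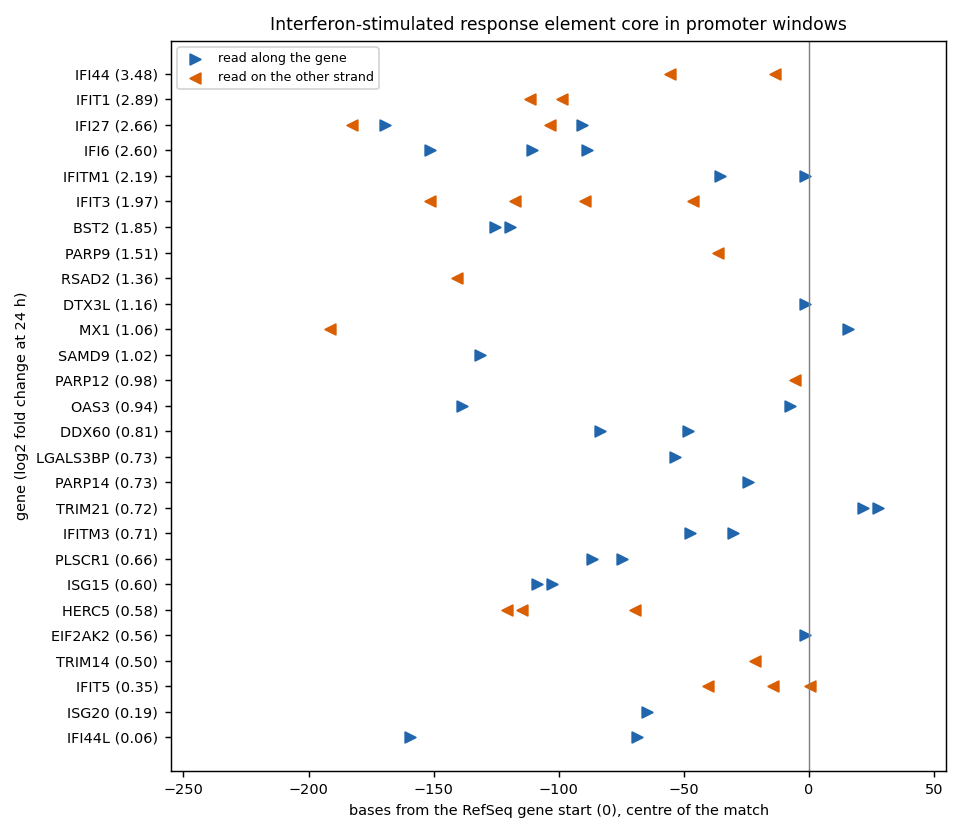
Positions of matches to the response element core in the RefSeq promoter windows of the 27 genes that hold one, in bases from the gene start (0), with genes ordered from top to bottom by log2 fold change at 24 h; arrows to the right are read along the gene and arrows to the left on the other strand, and a gene with more than 1 RefSeq start shows the matches of each window. Most matches lie before the start, and genes with matches span the whole range of fold changes, from IFI44 (3.48) to IFI44L.

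At 24 h, 35 of the 44 genes were higher in libraries labelled knockdown than in wild type, none was lower and 9 did not pass. The test was edgeR's quasi-likelihood test over all 19836 genes with Benjamini-Hochberg adjustment at 0.05, called the edgeR adjusted p from here on. Over all genes tested at 24 h, 5.14% were called higher and 12.4% lower. The median log2 fold change of the 44 genes was 0.92, against -0.02 for all genes tested. On the CPM scale, with library sizes adjusted by TMM, 41 of the 44 had both labelled knockdown libraries above both wild-type libraries, which 26.8% of all genes had, and none had them below, which 32.9% had.

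At 48 h, 16 genes were higher in knockdown, 3 were lower (OAS1, TRIM14 and TRIM25) and 25 did not pass. The share of all genes called was 14.8% higher and 18.5% lower, and the median of the 44 was 0.25 on the log2 scale against 0.06 for all genes. Groups did not overlap, with knockdown above, for 15 of the 44 (16.9% of all genes) and, with knockdown below, for 4 (20.3% of all genes). Fitting the 48 h libraries alone gave 9 higher in place of 16 and lost the call of OAS1. Without knockdown 48 h replicate 3 the count of lower genes was 7, with UBE2L6, PLSCR1 and LGALS3BP among those added. With abundance-dependent scaling LGALS3BP was instead called higher at 48 h (0.16, edgeR adjusted p = 0.041). At 96 h, 16 were higher, none was lower and 28 did not pass, while 5.35% of all genes were called higher and 5.15% lower. The median was 0.31 against -0.01 for all genes, and 25 of the 44 had all knockdown libraries above all wild-type libraries (16.2% of all genes), with none below (15.6% of all genes).

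The 6 genes called higher at all 3 times were IFIT1, IFITM3, PARP10, PARP12, PARP14 and IFI6. Among them, IFITM3 and IFI6 kept all 3 calls under every alternative run. IFIT1 lost its 96 h call under at least 1 alternative, and PARP10, PARP12 and PARP14 each lost both later calls under at least 1. The 48 h call of PARP10 was lost in 13 of the 16 fits that left out 1 library. Another 13 were called at 24 h only in the main test: IFIT3, OAS2, OAS3, EIF2AK2, BST2, USP18, HERC5, CMPK2, SAMD9L, DDX60, IFI35, IFI44 and PLSCR1. SAMD9L is in that count and among the 35 although its high group is also what let it pass the filter, so nothing is read from its call. The same holds for the calls of IFI27, which is among the 35 at 24 h and the 16 at 48 h. It passed the filter through knockdown libraries only. IFIT5, ADAR, MX2, IFI44L and XAF1 were called at no time. The way libraries are scaled sets the level that a fold change is read against. With total-count scaling the median of all genes moved to 0.19 at 24 h and 0.20 at 48 h, and that of the 44 genes to 1.13 and 0.39. The same scaling changed the split of all genes called at 24 h to 2477 higher of 3287, against 1019 of 3484 in the main test, and at 48 h to 4731 of 6865, against 2928 of 6591. The counts of the 44 genes called higher stayed within 1.5 times at every time under each scaling tried.

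**Figure D2:**
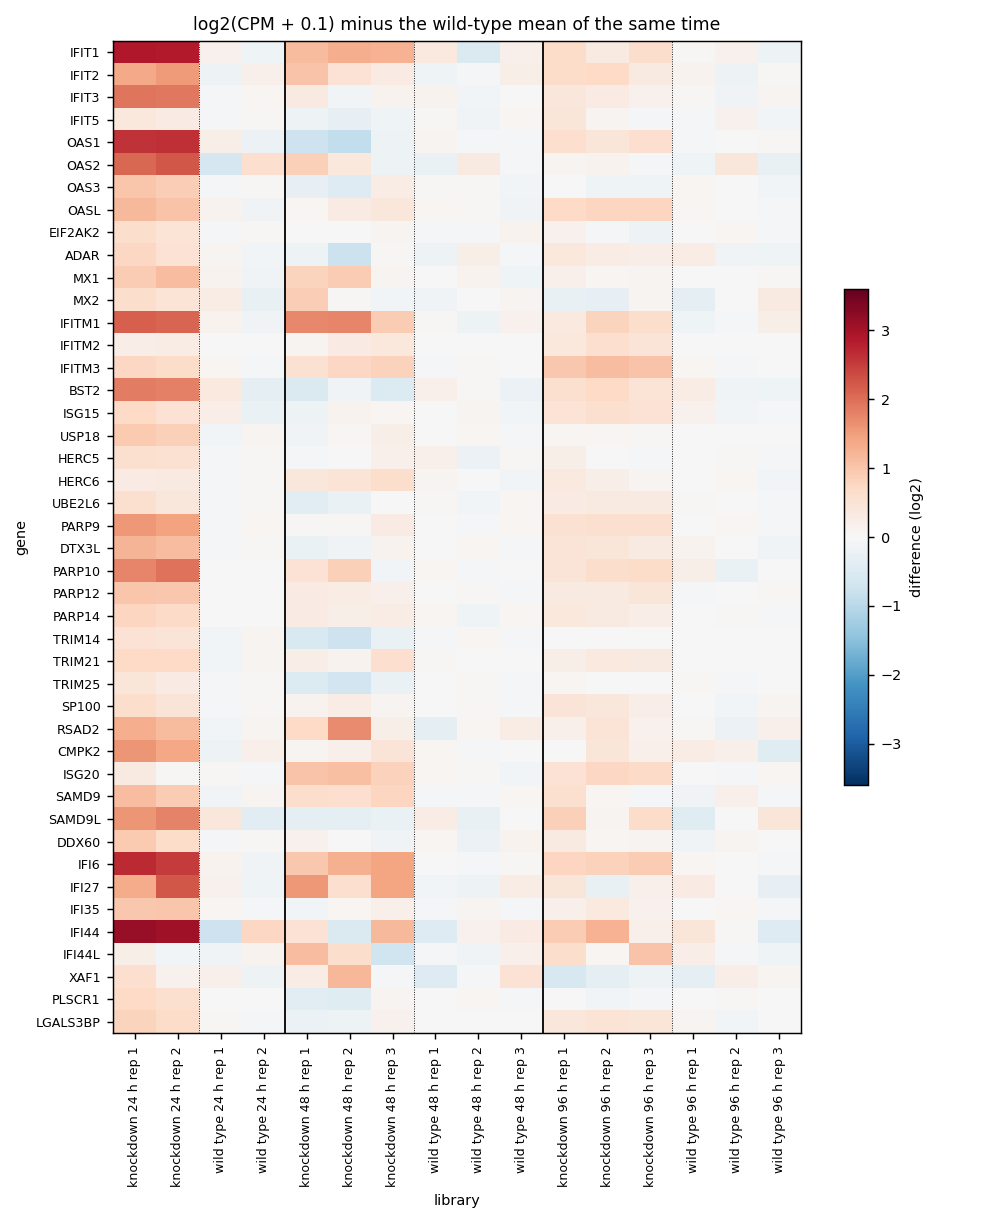
Each cell is log2(CPM + 0.1) of 1 gene in 1 library minus the mean of the wild-type libraries of the same time; libraries run from 24 h to 96 h with knockdown to the left of wild type at each time, and genes run by role. Nearly all rows are red in the 2 libraries labelled knockdown at 24 h, while at 48 h red and blue rows alternate, with OAS1, TRIM14 and TRIM25 blue in knockdown.

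The targeted RNA and the repressor were read in the same libraries. NORAD (chr20:36045622-36050960, GENCODE 29 on GRCh38) had 230 and 188 CPM in the libraries labelled knockdown at 24 h, against 179 and 201 CPM in wild type, so it was not lower there and those libraries are named by their label. At 48 h NORAD had 21.8, 18.1 and 24.8 CPM in knockdown and 156, 155 and 162 CPM in wild type, and at 96 h 79.9, 72.7 and 66.1 CPM in knockdown and 181, 184 and 183 CPM in wild type. It fell at both later times, by log2 fold changes of -2.88 ± 0.1 and -1.33 ± 0.098 (SE; edgeR adjusted p = 1.27e-13 and 5.25e-08). ZNF10, the zinc finger gene whose repressor domain is the one commonly used for CRISPR interference, had 110 and 78.7 CPM in libraries labelled knockdown at 24 h, against 0.264 and 0.439 CPM in wild type. ZNF10 had 8.35, 4.73 and 16.7 CPM in knockdown at 48 h and 39.3, 32.6 and 34 CPM at 96 h, while no wild-type library at those times exceeded 0.192 CPM. Knockdown libraries held ZNF10 reads at every time and wild-type libraries held almost none. At 48 h and 96 h lower NORAD and the presence of these reads came together and cannot be told apart, whereas at 24 h the ZNF10 reads were present and NORAD was not lower. The part of either in the results below was not tested.

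**Figure D3:**
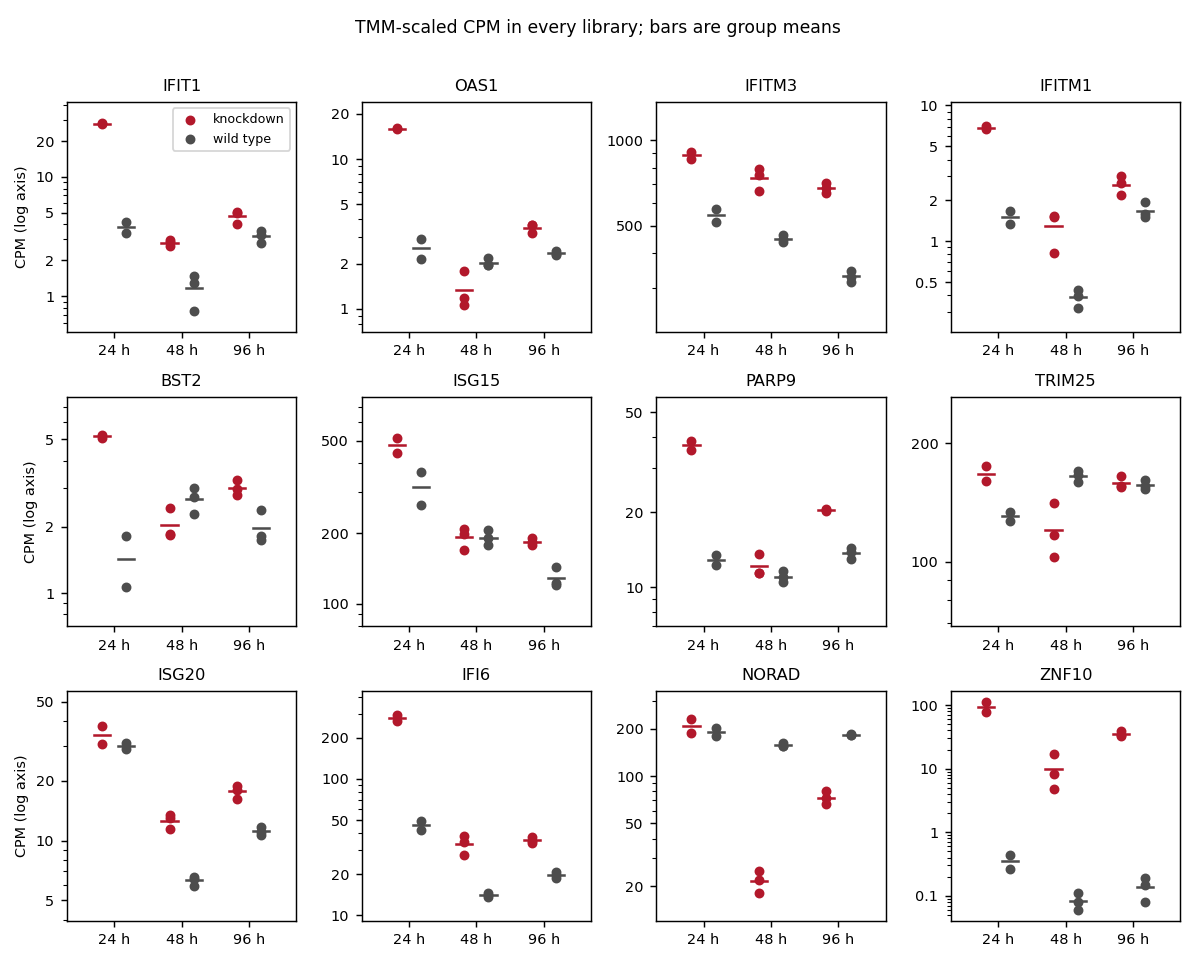
CPM of 10 interferon-stimulated genes, NORAD and ZNF10 in every library on log axes, with knockdown to the left of wild type at each time and bars at the group means. NORAD overlaps between groups at 24 h and is lower in knockdown at 48 h and 96 h, while IFIT1, OAS1, BST2, PARP9 and IFI6 are furthest apart at 24 h.

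Other features of the libraries moved with the groups too. Mitochondrially encoded RNA held 6.08% and 6.10% of matched counts in libraries labelled knockdown at 24 h, against 4.89% and 5.05% in wild type, and transcripts annotated as retained introns held 5.58% and 6.04% in libraries labelled knockdown, against 5.17% and 4.93% in wild type. Mitochondrially encoded RNA at 48 h held 12.3%, 13.8% and 12.9% in knockdown, against 10.8%, 10.4% and 11.1% in wild type. At 96 h its shares overlapped, with 15.4%, 14.8% and 17.4% in knockdown and 15.5%, 16.6% and 15.9% in wild type. At 48 h retained introns held 5.73%, 5.29% and 4.18% in knockdown, against 4.05%, 4.26% and 4.22% in wild type, so knockdown replicate 3 lay with wild type. All 10 epithelial markers were tested (1 higher and 2 lower at 24 h, 1 and 4 at 48 h, 5 and 0 at 96 h) and present in every library, with EPCAM, a surface marker of epithelium, between 118 and 225 TPM, a length-scaled level. Of 16 immune cell markers 9 were tested (0 higher and 1 lower at 24 h, 1 and 0 at 48 h and at 96 h), and PTPRC, carried by all white blood cells, did not exceed 0.188 TPM in any library. The summed level of the 16 was 44.3 to 48.8 TPM in libraries labelled knockdown at 24 h and 47.4 to 47.9 TPM in wild type, with CD68, a lysosomal protein that other cells also make, reaching 42.9 TPM. At 48 h the immune sum was 9.89 to 14 TPM in knockdown and 8.19 to 10.2 TPM in wild type, and at 96 h 18 to 24 TPM in knockdown and 11.2 to 17.3 TPM in wild type. Of 12 fibroblast, endothelial and erythroid markers 8 were tested, with 1 higher at 48 h and no other call, and their sum, led by COL1A1, was 47.4 to 51.4 TPM in libraries labelled knockdown at 24 h and 30.6 to 41.0 TPM in wild type. That sum was 23.4 to 26.5 TPM in knockdown and 10.7 to 15.4 TPM in wild type at 48 h, and 22.2 to 22.8 TPM in knockdown and 20.5 to 22.6 TPM in wild type at 96 h. The part of these features in the results was not tested. CD2, MS4A1 and FCGR3A were at 0 in some libraries and never above 0.0779 TPM. Beside the counts of markers called, 5.14% of all genes were higher and 12.4% lower at 24 h. The shares were 14.8% and 18.5% at 48 h and 5.35% and 5.15% at 96 h. In bulk RNA, fewer cells with a transcript and less of it per cell cannot be told apart.

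IFIT proteins bind RNA ends that lack host cap marks and block their translation, and their genes lie together on chromosome 10. Of the 4, 3 passed as higher at 24 h, 2 at 48 h and 1 at 96 h. For this and each later role group, 5.14% of all genes were called higher and 12.4% lower at 24 h. The shares were 14.8% and 18.5% at 48 h and 5.35% and 5.15% at 96 h. IFIT1 (ENSG00000185745, chr10:89392546-89406486), which binds capped RNA without the host methyl mark, had 28.3 and 27.8 CPM in libraries labelled knockdown at 24 h, against 4.22 and 3.36 CPM in wild type. At 48 h IFIT1 had 2.62, 2.97 and 2.87 CPM in knockdown and 1.49, 0.757 and 1.3 CPM in wild type. At 96 h IFIT1 had 5.09, 4 and 4.99 CPM in knockdown and 3.23, 3.5 and 2.79 CPM in wild type. Knockdown lay above wild type in all libraries at each time, and the libraries labelled knockdown at 24 h were the highest of the course. The log2 fold changes were 2.89 ± 0.2, 1.26 ± 0.19 and 0.56 ± 0.16 from 24 h to 96 h (SE; edgeR adjusted p = 5.47e-09, 3.37e-05 and 0.0265).

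IFIT2, a partner of IFIT1 and IFIT3 in a complex, had 2.82 and 3.18 CPM in libraries labelled knockdown at 24 h and 0.904 and 1.17 CPM in wild type. IFIT2 had 1.08, 0.738 and 0.62 CPM in knockdown and 0.425, 0.46 and 0.579 CPM in wild type at 48 h, and 2.47, 2.58 and 1.96 CPM in knockdown and 1.69, 1.35 and 1.59 CPM in wild type at 96 h. The groups did not overlap at any time, and it passed at 24 h (log2 fold change 1.53 ± 0.29) and 48 h (0.74 ± 0.27), with edgeR adjusted p = 0.00101 and 0.0405. IFIT3, which stabilises IFIT1, had 6.29 and 6.2 CPM in libraries labelled knockdown at 24 h, against 1.51 and 1.68 CPM in wild type. Its later values were 3.13, 2.3 and 2.68 CPM in knockdown and 2.67, 2.3 and 2.43 CPM in wild type at 48 h. IFIT3 at 96 h had 3.06, 2.83 and 2.56 CPM in knockdown and 2.38, 2.09 and 2.45 CPM in wild type. The IFIT3 groups overlapped at 48 h and were separate at 24 h and 96 h, of which 24 h passed (1.97 ± 0.21, edgeR adjusted p = 2.49e-06). IFIT5, which binds uncapped RNA, had 14.4 and 13.7 CPM in libraries labelled knockdown at 24 h and 10.7 and 11.4 CPM in wild type. At 48 h IFIT5 had 18.2, 16.8 and 18.3 CPM in knockdown and 21.2, 18.9 and 21.7 CPM in wild type. IFIT5 at 96 h had 19.6, 15.4 and 14.1 CPM in knockdown and 13.8, 16.2 and 13.5 CPM in wild type. Its knockdown values lay above wild type at 24 h, below it at 48 h and among it at 96 h, and it passed at no time. IFIT2 overlaps LIPA, a lysosomal lipase gene with 1100 counts per library on average on the other strand, and how the counting used strand is not given in the sources used here. The IFIT2 call at 48 h was lost when knockdown 24 h replicate 1 or 2, knockdown 48 h replicate 1 or wild-type 48 h replicate 1 or 2 was left out (edgeR adjusted p up to 0.217), and the IFIT1 call at 96 h without knockdown replicate 1 or 3 or wild-type replicate 1 or 3 of that time (up to 0.129). Abundance-dependent scaling (edgeR adjusted p = 0.26), no filter (0.0791), a replicate block (0.101) and the 48 h libraries alone (0.189) also lost the IFIT2 call. So did DESeq2 (adjusted p = 0.0759) and, in edgeR, leaving out the 24 h libraries (0.0573). The IFIT1 call at 96 h was also lost with the replicate block (0.0738) and without the 24 h libraries (0.0782).

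Oligoadenylate synthetases respond to double-stranded RNA by making a messenger that switches on the nuclease RNase L, and OASL is a family member without that activity. The 4 genes all passed as higher at 24 h, while at 48 h none was higher and OAS1 was lower, and at 96 h OAS1 and OASL were higher. OAS1 (ENSG00000089127, chr12:112906777-112933222) had 15.9 and 16 CPM in libraries labelled knockdown at 24 h, against 2.94 and 2.16 CPM in wild type. At 48 h OAS1 had 1.18, 1.06 and 1.8 CPM in knockdown, all below the 2.19, 1.97 and 1.96 CPM of wild type. At 96 h OAS1 had 3.64, 3.2 and 3.63 CPM in knockdown, all above the 2.3, 2.34 and 2.45 CPM of wild type. Knockdown was thus the higher group at 24 h and 96 h and the lower one at 48 h, with log2 fold changes of 2.65 ± 0.21, -0.61 ± 0.18 and 0.57 ± 0.17 (SE; edgeR adjusted p = 3.79e-08, 0.0147 and 0.0295).

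OASL had 35.6 and 32.2 CPM in libraries labelled knockdown at 24 h and 17.1 and 14.6 CPM in wild type. OASL had 8.09, 9.54 and 10.2 CPM in knockdown and 8.13, 7.95 and 7.03 CPM in wild type at 48 h, which overlapped, and 20.2, 21.1 and 21.1 CPM in knockdown and 12.9, 12.3 and 11.6 CPM in wild type at 96 h, which did not. It passed at 24 h (1.10 ± 0.12, edgeR adjusted p = 3.81e-06) and at 96 h (0.76 ± 0.097, edgeR adjusted p = 1.88e-05). OAS3, the member with the longest protein, had 108 and 101 CPM in libraries labelled knockdown at 24 h, against 52.3 and 56.5 CPM in wild type. Its values were 54.1, 48.4 and 79.9 CPM in knockdown and 68.9, 68.8 and 61.7 CPM in wild type at 48 h. OAS3 at 96 h had 53.7, 48.7 and 49.2 CPM in knockdown and 57.6, 55.3 and 50.7 CPM in wild type. OAS3 passed at 24 h only (0.94 ± 0.17, edgeR adjusted p = 0.000968), and its knockdown replicate 3 at 48 h stood above all other libraries of that time. OAS2 was sparse, with 0.772 and 0.885 CPM in libraries labelled knockdown at 24 h and 0.0376 and 0.219 CPM in wild type, which rest on 63 and 7 counts (ratio 6.42, 95% interval 2.94 to 16.6 for counting error only). OAS2 had 1.04, 0.715 and 0.451 CPM in knockdown and 0.425, 0.676 and 0.496 CPM in wild type at 48 h. OAS2 at 96 h had 0.367, 0.375 and 0.314 CPM in knockdown and 0.292, 0.483 and 0.264 CPM in wild type, and the groups overlapped at both times. The 24 h call of OAS2 was lost without wild-type 24 h replicate 1 (edgeR adjusted p = 0.0788), and its log2 fold change ran from 1.91 to 4.35 over the fits that left out 1 library. The OAS1 call at 48 h was lost without knockdown replicate 1 or 2 or wild-type replicate 1 of that time (up to 0.079) and with the 48 h libraries alone (0.155). The OAS1 call at 96 h was lost in 7 of the 16 fits that left out 1 library, namely knockdown 24 h replicates 1 and 2, knockdown 96 h replicates 1 and 3 and all 3 wild-type libraries at 96 h (up to 0.108).

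EIF2AK2 encodes PKR, a kinase that halts translation when it binds double-stranded RNA, and ADAR edits such RNA so that sensors no longer bind it. EIF2AK2 had 70.2 and 62.6 CPM in libraries labelled knockdown at 24 h, against 43.7 and 46.1 CPM in wild type. EIF2AK2 had 50.5, 51.5 and 54.9 CPM in knockdown and 49.4, 48.9 and 56.3 CPM in wild type at 48 h. EIF2AK2 at 96 h had 49.1, 43 and 38.9 CPM in knockdown and 44.2, 46.6 and 41.9 CPM in wild type, with overlap at both. It passed at 24 h alone (0.56 ± 0.11, edgeR adjusted p = 0.000886). ADAR had 288 and 243 CPM in libraries labelled knockdown at 24 h and 181 and 160 CPM in wild type, which did not overlap, but the difference did not pass (0.64 ± 0.23, edgeR adjusted p = 0.0776). ADAR had 214, 143 and 248 CPM in knockdown and 215, 283 and 235 CPM in wild type at 48 h. ADAR at 96 h had 295, 273 and 268 CPM in knockdown and 273, 207 and 202 CPM in wild type. Knockdown 48 h replicate 2 was the lowest of all 16 libraries for ADAR, and without it the 24 h difference passed (edgeR adjusted p = 0.00881). Over all alternatives that p ran from 2.5e-05, with the libraries of 24 h alone, to 0.338, without wild-type 24 h replicate 2.

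MX1 and MX2 are GTPases that assemble on viral nucleoproteins or capsids. MX1 had 3.53 and 4.11 CPM in libraries labelled knockdown at 24 h, against 2 and 1.68 CPM in wild type. MX1 had 2.79, 3.02 and 1.66 CPM in knockdown and 1.58, 1.7 and 1.38 CPM in wild type at 48 h, where knockdown replicate 3 lay among the wild-type values, and 2.25, 2.08 and 2.09 CPM in knockdown and 1.92, 1.93 and 2.02 CPM in wild type at 96 h. It passed at 24 h (1.06 ± 0.26) and 48 h (0.69 ± 0.21), with edgeR adjusted p = 0.00569 and 0.0152. MX2 had 3.5 and 3.18 CPM in libraries labelled knockdown at 24 h and 2.67 and 1.83 CPM in wild type. At 48 h MX2 had 3.06, 1.66 and 1.49 CPM in knockdown and 1.46, 1.62 and 1.74 CPM in wild type. MX2 at 96 h had 1.22, 1.2 and 1.59 CPM in knockdown and 1.15, 1.51 and 1.87 CPM in wild type, and passed at no time. Only 1.55% of its counts lay in protein-coding transcripts. The MX1 call at 24 h was lost without knockdown replicate 2 or wild-type replicate 2 of that time (edgeR adjusted p = 0.0595 and 0.0828), and that at 48 h without knockdown replicate 1 or 2 or wild-type replicate 3 (up to 0.0822) and with protein-coding transcripts only (0.122).

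The membrane factors stop viruses as they enter or leave: IFITM proteins stiffen membranes against fusion, and BST2, also called tetherin, holds budding particles at the cell surface. Of the 4, 3 passed as higher at 24 h, 3 at 48 h and 2 at 96 h. IFITM3 (ENSG00000142089, chr11:319669-327537), which acts in endosomes, had 911 and 863 CPM in libraries labelled knockdown at 24 h, against 574 and 513 CPM in wild type. At 48 h IFITM3 had 661, 757 and 792 CPM in knockdown and 438, 461 and 448 CPM in wild type. At 96 h IFITM3 had 650, 709 and 678 CPM in knockdown and 346, 316 and 329 CPM in wild type. The groups were separate at each time, and the log2 fold changes were 0.71 ± 0.094, 0.71 ± 0.076 and 1.04 ± 0.077 (SE; edgeR adjusted p = 3.14e-05, 7.16e-07 and 5.25e-08), without a difference between times that passed (edgeR adjusted p = 0.0794).

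IFITM1, which sits at the cell surface, had 7.06 and 6.67 CPM in libraries labelled knockdown at 24 h and 1.66 and 1.35 CPM in wild type. IFITM1 had 1.52, 1.54 and 0.817 CPM in knockdown and 0.395, 0.324 and 0.441 CPM in wild type at 48 h. IFITM1 at 96 h had 2.18, 3 and 2.67 CPM in knockdown and 1.5, 1.59 and 1.95 CPM in wild type. Knockdown was above wild type in every library at each time, and the difference passed at 24 h (2.19 ± 0.28) and 48 h (1.74 ± 0.27) but not at 96 h (0.64 ± 0.22), with edgeR adjusted p = 2.19e-05, 5.13e-05 and 0.068. IFITM2, close in sequence to IFITM3, had 102 and 103 CPM in libraries labelled knockdown at 24 h, against 87.3 and 84.9 CPM in wild type. IFITM2 had 58, 66.7 and 70.9 CPM in knockdown and 53.4, 54.8 and 54.1 CPM in wild type at 48 h. IFITM2 at 96 h had 80.8, 94.3 and 86.6 CPM in knockdown and 63, 61.1 and 62.7 CPM in wild type. The groups were separate at each time, and it passed at 48 h (0.27 ± 0.076, edgeR adjusted p = 0.00949) and 96 h (0.49 ± 0.075, edgeR adjusted p = 0.000153). These paralogs share sequence, and IFITM1 overlaps an IFITM2 transcript on the same strand, so the division of reads among them is uncertain. Summed to 1 unit, IFITM1, IFITM2 and IFITM3 were higher by 0.66 ± 0.093, 0.67 ± 0.076 and 0.96 ± 0.076 on the log2 scale (edgeR adjusted p = 6.33e-05, 1.31e-06 and 9.73e-08). BST2 (ENSG00000130303, chr19:17402939-17405648) had 5.22 and 5.1 CPM in libraries labelled knockdown at 24 h, against 1.81 and 1.06 CPM in wild type. BST2 had 1.83, 2.44 and 1.86 CPM in knockdown and 3, 2.73 and 2.29 CPM in wild type at 48 h, where 2 of 3 knockdown libraries lay below all wild-type ones, and 2.98, 3.28 and 2.8 CPM in knockdown and 2.4, 1.81 and 1.75 CPM in wild type at 96 h. The groups were separate at 24 h and 96 h, and in the main test BST2 passed at 24 h only (1.85 ± 0.26, edgeR adjusted p = 5.55e-05). At 96 h it was called higher with abundance-dependent scaling (edgeR adjusted p = 0.0482) and with the 96 h libraries alone (0.0127). DESeq2 also called it higher at 96 h (adjusted p = 0.0323), as did 5 of the 16 fits that left out 1 library. With abundance-dependent scaling BST2 was called lower at 48 h (-0.63, edgeR adjusted p = 0.0234).

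ISG15 is a ubiquitin-like protein that UBE2L6 and HERC5 attach to other proteins and USP18 removes. In this system 4 of 5 genes passed as higher at 24 h, 1 at 48 h and 2 at 96 h. ISG15 (ENSG00000187608, chr1:1001138-1014540) had 515 and 443 CPM in libraries labelled knockdown at 24 h, against 366 and 265 CPM in wild type. ISG15 had 170, 208 and 199 CPM in knockdown and 191, 206 and 178 CPM in wild type at 48 h, which overlapped, and 179, 192 and 183 CPM in knockdown and 144, 120 and 122 CPM in wild type at 96 h, which did not. It passed at 24 h (0.60 ± 0.13, edgeR adjusted p = 0.00361) and 96 h (0.53 ± 0.11, edgeR adjusted p = 0.0032). UBE2L6, the conjugating enzyme, had 35.3 and 31 CPM in libraries labelled knockdown at 24 h and 22.8 and 24.3 CPM in wild type. UBE2L6 had 14.5, 16 and 18.9 CPM in knockdown and 19.3, 17.4 and 19.8 CPM in wild type at 48 h. UBE2L6 at 96 h had 34.1, 34.4 and 34.4 CPM in knockdown and 28.8, 27.6 and 26.8 CPM in wild type. The groups overlapped at 48 h, and it was higher at 24 h (0.49 ± 0.11, edgeR adjusted p = 0.00329) and at 96 h (0.31 ± 0.088, edgeR adjusted p = 0.027).

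USP18, which also damps the interferon receptor, had 18.9 and 17.7 CPM in libraries labelled knockdown at 24 h, against 9.15 and 10.5 CPM in wild type. USP18 had 10.5, 12.1 and 13.4 CPM in knockdown and 11.7, 12 and 10.9 CPM in wild type at 48 h. USP18 at 96 h had 11.8, 11.8 and 11.5 CPM in knockdown and 11.2, 11.2 and 11 CPM in wild type. Its groups were separate at 24 h, where it passed (0.89 ± 0.12, edgeR adjusted p = 4.47e-05), overlapped at 48 h and lay close together at 96 h. HERC6, a ligase related to HERC5, had 15.4 and 15.8 CPM in libraries labelled knockdown at 24 h and 12.2 and 12.9 CPM in wild type. At 48 h HERC6 had 13.9, 14.5 and 16 CPM in knockdown and 11.2, 10.4 and 9.6 CPM in wild type. HERC6 at 96 h had 14.4, 13 and 12 CPM in knockdown and 11.3, 11.9 and 10.6 CPM in wild type. Knockdown was above wild type in every library at each time, and HERC6 passed at 48 h (0.51 ± 0.097, edgeR adjusted p = 0.000381). HERC5, the main ligase for ISG15 in human cells, lay between 6.57 and 14.6 CPM over all libraries and passed at 24 h only (0.58 ± 0.14, edgeR adjusted p = 0.00524). At 24 h the call of ISG15 was lost without knockdown replicate 1 (edgeR adjusted p = 0.0588), without wild-type replicate 2 (0.0981) and with the libraries of that time alone (0.176), that of UBE2L6 without knockdown replicate 1 (0.0667) and that of HERC5 without wild-type replicate 1 (0.0582). The 96 h call of UBE2L6 was lost in 5 of the fits that left out 1 library, those without knockdown 96 h replicate 1, 2 or 3 or wild-type 96 h replicate 2 or 3 (up to 0.109).

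PARP9 and DTX3L form a ubiquitin ligase pair, PARP10, PARP12 and PARP14 attach ADP-ribose to proteins, and all are induced by interferon. Of these, 5 of 5 were higher at 24 h, 3 of 5 at 48 h and 5 of 5 at 96 h, with none lower. PARP9 (ENSG00000138496, chr3:122527924-122564577) had 38.5 and 35.3 CPM in libraries labelled knockdown at 24 h, against 12.3 and 13.5 CPM in wild type. PARP9 had 11.4, 11.4 and 13.6 CPM in knockdown and 11, 10.5 and 11.6 CPM in wild type at 48 h. PARP9 at 96 h had 20.2, 20.5 and 20.4 CPM in knockdown and 13.9, 14.3 and 13 CPM in wild type. The groups were far apart at 24 h (1.51 ± 0.11, edgeR adjusted p = 1.19e-08), met at 48 h and were apart again at 96 h (0.56 ± 0.088, edgeR adjusted p = 0.000175). DTX3L had 32.5 and 30 CPM in libraries labelled knockdown at 24 h and 13.6 and 14.3 CPM in wild type. DTX3L had 13.4, 14.5 and 17 CPM in knockdown and 15.9, 16.4 and 14.8 CPM in wild type at 48 h. DTX3L at 96 h had 20.5, 20 and 18.4 CPM in knockdown and 16.1, 14.8 and 13.6 CPM in wild type. It was separate at 24 h and 96 h and overlapped at 48 h, like PARP9, and passed at 24 h (1.16 ± 0.12, edgeR adjusted p = 1.91e-06) and 96 h (0.40 ± 0.095, edgeR adjusted p = 0.007). The gene bodies of PARP9 and DTX3L overlap on opposite strands, so their counts are not independent where strand was not used.

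PARP10, a mono-ADP-ribosyl transferase, had 12.3 and 14.3 CPM in libraries labelled knockdown at 24 h, against 3.58 and 3.58 CPM in wild type. PARP10 had 3.64, 4.68 and 2.34 CPM in knockdown and 2.64, 2.38 and 2.54 CPM in wild type at 48 h, where knockdown replicate 3 was below every wild-type library, and 6.65, 7.43 and 7.61 CPM in knockdown and 5.53, 4.01 and 4.85 CPM in wild type at 96 h. Its log2 fold changes were 1.90 ± 0.22, 0.50 ± 0.19 and 0.59 ± 0.17 (SE; edgeR adjusted p = 8.77e-06, 0.0446 and 0.0288). PARP12, found at stress granules and the Golgi, had 57.1 and 56.8 CPM in libraries labelled knockdown at 24 h and 29.2 and 28.4 CPM in wild type. PARP12 had 31.3, 30.9 and 29.2 CPM in knockdown and 25.6, 26.4 and 25 CPM in wild type at 48 h. PARP12 at 96 h had 27.2, 27.4 and 29.8 CPM in knockdown and 21.1, 22.1 and 22.5 CPM in wild type. No library of 1 group reached the other at any time, with log2 fold changes of 0.98 ± 0.086, 0.25 ± 0.07 and 0.36 ± 0.07 (edgeR adjusted p = 1.47e-07, 0.00971 and 0.00138). PARP14, the largest of the group, had 33.1 and 31.1 CPM in libraries labelled knockdown at 24 h, against 19.3 and 19.3 CPM in wild type. PARP14 had 24.9, 23.7 and 24.3 CPM in knockdown and 21.2, 18.3 and 21.5 CPM in wild type at 48 h. PARP14 at 96 h had 28.7, 27.3 and 25.6 CPM in knockdown and 21.8, 22.4 and 21.4 CPM in wild type. It was separate at each time too (0.73 ± 0.098, 0.26 ± 0.079 and 0.31 ± 0.078; edgeR adjusted p = 3.47e-05, 0.0168 and 0.0102). With protein-coding transcripts only, which hold 23.1% of its counts, PARP12 kept its 24 h call and lost those at 48 h (edgeR adjusted p = 0.655) and 96 h (0.619), and PARP14 and PARP10 lost theirs at 48 h (0.0562 and 0.286). The PARP10 call at 48 h was lost in 13 of the 16 fits that left out 1 library, all but those without knockdown 48 h replicate 3 or wild-type 96 h replicate 1 or 2 (up to 0.312), its 96 h call without knockdown replicate 2 or 3 or wild-type replicate 2 or 3 of that time (up to 0.175), PARP14's without knockdown 48 h replicate 1 (0.0513), wild-type 48 h replicate 2 (0.114) and, for 96 h, knockdown 96 h replicate 1 (0.0502), and DTX3L's at 96 h without wild-type replicate 3 (0.0524).

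TRIM14, TRIM21 and TRIM25 are tripartite-motif proteins that feed sensor signals or, for TRIM21, recognise antibody-coated virus, and SP100 is a component of nuclear bodies. The 4 genes were all higher at 24 h, but at 48 h TRIM14 and TRIM25 were lower, TRIM21 was higher and SP100 did not pass, and at 96 h SP100 alone was higher. TRIM25 (ENSG00000121060, chr17:56836387-56914080), which ubiquitinates the RNA sensor RIG-I, had 175 and 160 CPM in libraries labelled knockdown at 24 h, against 127 and 134 CPM in wild type. TRIM25 had 117, 103 and 141 CPM in knockdown and 166, 170 and 159 CPM in wild type at 48 h. TRIM25 at 96 h had 165, 156 and 155 CPM in knockdown and 161, 153 and 156 CPM in wild type. Knockdown was above wild type at 24 h (0.36 ± 0.1, edgeR adjusted p = 0.02) and below it at 48 h (-0.46 ± 0.086, edgeR adjusted p = 0.000326), and the groups overlapped at 96 h. TRIM14, an adaptor at mitochondria, had 44.5 and 43.1 CPM in libraries labelled knockdown at 24 h and 29 and 33 CPM in wild type. TRIM14 had 26.4, 23 and 32.9 CPM in knockdown and 37.5, 41.1 and 37.8 CPM in wild type at 48 h. TRIM14 at 96 h had 32.4, 32.3 and 31.9 CPM in knockdown and 32.4, 32.6 and 31.8 CPM in wild type. Its groups were separate at 24 h and 48 h in opposite order and overlapped at 96 h, with 0.50 ± 0.12 at 24 h and -0.50 ± 0.096 at 48 h (edgeR adjusted p = 0.00511 and 0.000412).

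TRIM21, a cytosolic antibody receptor, had 29.5 and 29.2 CPM in libraries labelled knockdown at 24 h, against 16.7 and 18.9 CPM in wild type. TRIM21 had 24.6, 22.6 and 31.7 CPM in knockdown and 21.3, 20.5 and 20.8 CPM in wild type at 48 h, with replicate 3 of knockdown the highest, and 19.4, 21.4 and 21 CPM in knockdown and 16.9, 16.6 and 16.7 CPM in wild type at 96 h. It passed at 24 h (0.72 ± 0.12) and 48 h (0.33 ± 0.099), with edgeR adjusted p = 0.000398 and 0.013, and not at 96 h (edgeR adjusted p = 0.0572) although the groups were separate. SP100 had 76.1 and 68.7 CPM in libraries labelled knockdown at 24 h and 48.3 and 50.7 CPM in wild type. SP100 had 59, 65.8 and 57.7 CPM in knockdown and 55.1, 56.2 and 51.9 CPM in wild type at 48 h. SP100 at 96 h had 67.9, 65.2 and 58.6 CPM in knockdown and 49.7, 46.1 and 52.5 CPM in wild type. Knockdown was above wild type in every library at each time, and SP100 passed at 24 h (0.55 ± 0.097, edgeR adjusted p = 0.000519) and 96 h (0.37 ± 0.078, edgeR adjusted p = 0.003). At 24 h the TRIM25 call was lost without knockdown replicate 1 (edgeR adjusted p = 0.176) or wild-type replicate 1 or 2 (0.148 and 0.0793) and the TRIM14 call without wild-type replicate 1 (0.0909), and at 48 h the TRIM21 call without knockdown replicate 3 (0.0743).

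The next group acts on nucleotides and nucleic acids. RSAD2, known as viperin, and CMPK2 make altered or ordinary nucleotides, ISG20 is an exonuclease, SAMD9 and SAMD9L restrict poxviruses, and DDX60 is a helicase-like partner of RNA sensors. Of the 6, 4 were higher at 24 h, 3 at 48 h and 1 at 96 h. ISG20 (ENSG00000172183, chr15:88636153-88656483) had 37.7 and 30.6 CPM in libraries labelled knockdown at 24 h, against 30.9 and 28.9 CPM in wild type, which overlapped and did not pass (edgeR adjusted p = 0.309). With total-count scaling, though, ISG20 was called higher at 24 h (0.40, edgeR adjusted p = 0.0239). At 48 h ISG20 had 13, 13.5 and 11.4 CPM in knockdown and 6.59, 6.44 and 5.93 CPM in wild type. At 96 h ISG20 had 16.2, 18.8 and 18.1 CPM in knockdown and 11.1, 10.7 and 11.7 CPM in wild type. Its groups were separate at both later times and the log2 fold changes there were 1.00 ± 0.1 and 0.66 ± 0.098 (edgeR adjusted p = 4.75e-07 and 9.43e-05), although the levels of both groups were highest at 24 h.

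SAMD9 had 47.6 and 41.8 CPM in libraries labelled knockdown at 24 h and 20.4 and 23.7 CPM in wild type. SAMD9 had 21.2, 20.7 and 23.2 CPM in knockdown and 13.2, 13.2 and 14.4 CPM in wild type at 48 h. SAMD9 at 96 h had 19.5, 13.7 and 12.5 CPM in knockdown and 11.8, 14.8 and 12.6 CPM in wild type. The groups overlapped at 96 h, and it was higher at 24 h (1.02 ± 0.16) and 48 h (0.67 ± 0.13), with edgeR adjusted p = 0.000217 and 0.000623. DDX60 had 11 and 8.95 CPM in libraries labelled knockdown at 24 h, against 5.5 and 5.81 CPM in wild type. DDX60 had 5.56, 5.07 and 4.56 CPM in knockdown and 5.31, 4.35 and 5.43 CPM in wild type at 48 h. DDX60 at 96 h had 11.2, 9.34 and 9.59 CPM in knockdown and 8.24, 9.58 and 9.11 CPM in wild type. With the groups overlapping at both later times, it passed at 24 h alone (0.81 ± 0.16, edgeR adjusted p = 0.00102). CMPK2 had 4.3 and 3.78 CPM in libraries labelled knockdown at 24 h and 1.2 and 1.57 CPM in wild type. CMPK2 had 0.891, 0.945 and 1.18 CPM in knockdown and 0.88, 0.784 and 0.827 CPM in wild type at 48 h. CMPK2 at 96 h had 0.88, 1.23 and 1.02 CPM in knockdown and 1.09, 1.01 and 0.625 CPM in wild type. Its groups were separate at 24 h and 48 h, and it passed at 24 h alone (1.54 ± 0.29, edgeR adjusted p = 0.00089), a call lost with protein-coding transcripts only (edgeR adjusted p = 0.215). RSAD2, which overlaps CMPK2 on the other strand, lay between 0.161 and 1.48 CPM and passed at 48 h (1.20 ± 0.41, edgeR adjusted p = 0.0305), a call lost without knockdown 48 h replicate 2 (0.313) or wild-type 48 h replicate 1 or 2 (0.116 and 0.0641). That RSAD2 call was also lost with DESeq2 (adjusted p = 0.0525), and in edgeR with abundance-dependent scaling (adjusted p = 0.168), the replicate block (0.0902), the 48 h libraries alone (0.114) and without the 24 h libraries (0.0519). At 24 h RSAD2 had 1.48 and 1.29 CPM in libraries labelled knockdown and 0.489 and 0.585 CPM in wild type. That difference did not pass (1.36, edgeR adjusted p = 0.0538). It did with upper-quartile scaling (0.0467), total-count scaling (0.0303) and the 24 h libraries alone (0.0025). SAMD9L had 25 counts in libraries labelled knockdown at 24 h and 2 in wild type (ratio 8.92, 95% interval 2.23 to 77.7 for counting error only). Its fitted log2 fold change ran from 2.08 to 6.70 over the fits that left out 1 library.

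The last group holds IFI genes and 3 others with mixed or less defined roles. Of its 8 genes, 6 were higher at 24 h, 2 at 48 h and 2 at 96 h. IFI6 (ENSG00000126709, chr1:27666061-27672218), a small membrane protein that opposes replication of flaviviruses and apoptosis, had 293 and 264 CPM in libraries labelled knockdown at 24 h, against 49.5 and 42.2 CPM in wild type. At 48 h IFI6 had 27.6, 34.3 and 38.2 CPM in knockdown and 14.1, 13.7 and 14.5 CPM in wild type. At 96 h IFI6 had 34.1, 35.3 and 37.5 CPM in knockdown and 20.7, 19.9 and 18.8 CPM in wild type. The groups were separate at each time, and IFI6 had the lowest p of the 44 genes at 24 h and 48 h, with log2 fold changes of 2.60 ± 0.12, 1.24 ± 0.1 and 0.85 ± 0.097 (SE; edgeR adjusted p = 8.1e-12, 1.94e-08 and 6.24e-06).

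IFI44, a cytoplasmic protein of unclear mechanism, had 1.93 and 1.84 CPM in libraries labelled knockdown at 24 h and 0.0376 and 0.293 CPM in wild type. Those are 142 and 9 counts (ratio 11.3, 95% interval 5.77 to 25.1 for counting error only), and it was higher there by 3.48 ± 0.69 (edgeR adjusted p = 0.00145; 5.53 without wild-type 24 h replicate 2). IFI44 had 0.337, 0.115 and 0.592 CPM in knockdown and 0.121, 0.243 and 0.276 CPM in wild type at 48 h. IFI44 at 96 h had 0.709, 0.926 and 0.392 CPM in knockdown and 0.48, 0.342 and 0.216 CPM in wild type, which overlapped. IFI35, which binds the protein NMI, had 29.8 and 29.9 CPM in libraries labelled knockdown at 24 h, against 15.9 and 14.2 CPM in wild type. IFI35 had 21.8, 24.8 and 26.9 CPM in knockdown and 22.8, 25.2 and 22.7 CPM in wild type at 48 h. IFI35 at 96 h had 20.8, 23.7 and 20.5 CPM in knockdown and 18.6, 19.2 and 17.5 CPM in wild type. The groups overlapped at 48 h and were separate at 24 h and 96 h, and it passed at 24 h (0.98 ± 0.11, edgeR adjusted p = 7.25e-06). LGALS3BP, a secreted galectin-binding glycoprotein, had 708 and 650 CPM in libraries labelled knockdown at 24 h and 422 and 393 CPM in wild type. LGALS3BP had 561, 567 and 716 CPM in knockdown and 649, 650 and 637 CPM in wild type at 48 h. LGALS3BP at 96 h had 698, 742 and 707 CPM in knockdown and 561, 492 and 530 CPM in wild type. It was higher at 24 h (0.73 ± 0.1, edgeR adjusted p = 7.21e-05) and 96 h (0.44 ± 0.085, edgeR adjusted p = 0.00151), and at 48 h knockdown replicate 3 was above, and replicates 1 and 2 below, wild type.

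PLSCR1, a membrane phospholipid scramblase that limits viral entry, had 25.3 and 23 CPM in libraries labelled knockdown at 24 h, against 15.3 and 15.3 CPM in wild type. PLSCR1 had 17.6, 17.5 and 25.1 CPM in knockdown and 23.6, 24.5 and 22.4 CPM in wild type at 48 h. PLSCR1 at 96 h had 16.2, 14.9 and 15.4 CPM in knockdown and 15.8, 16.4 and 15.8 CPM in wild type. It passed at 24 h (0.66 ± 0.14, edgeR adjusted p = 0.00175), its groups overlapped later, and without knockdown 48 h replicate 3 it was lower at 48 h (-0.42, edgeR adjusted p = 0.000265). IFI27, IFI44L and XAF1 were sparse and had less than 50% of their counts in protein-coding transcripts. IFI27, a small mitochondrial and membrane protein, lay between 0.0481 and 0.813 CPM and passed at 24 h (2.66 ± 0.75) and 48 h (2.00 ± 0.63), with edgeR adjusted p = 0.0166 and 0.0187. IFI27 met the minimum count of the filter in knockdown libraries only. Its high groups thus let it pass the filter, and nothing is read from its calls. Its 24 h call was lost without knockdown replicate 2 or either wild-type library (up to 0.222), and its 48 h call without knockdown replicate 1 or wild-type replicate 1 or 2 (up to 0.0737). IFI44L lay between 0.0564 and 0.594 CPM, and XAF1, a regulator of apoptosis, between 0.611 and 2.79 CPM, and neither passed at any time.

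The size of the knockdown effect differed between times for 26 of the 44 genes (59.1%), against 9.44% of all genes, by a joint edgeR test over the 3 times. From 24 h to 48 h the effect (a log2 fold change) was lower for 20 genes and higher for 1, ISG20, while 0.701% of all genes had a lower and 1.07% a higher effect. OAS1 had the lowest p, with a difference of -3.26 ± 0.27 between its effects at 48 h and 24 h (log2; edgeR adjusted p = 1.05e-06). BST2 (-2.23 ± 0.33), IFIT3 (-1.83 ± 0.26), IFIT1 (-1.62 ± 0.27), PARP10 (-1.39 ± 0.29), PARP9 (-1.38 ± 0.14) and IFI6 (-1.36 ± 0.15) followed in size among genes that passed, with edgeR adjusted p = 0.000739, 0.000619, 0.00258, 0.0141, 1.05e-05 and 2.71e-05. ISG20 went the other way (0.81 ± 0.15, edgeR adjusted p = 0.00798), without passing in the fits that left out knockdown 24 h replicate 2 or wild-type 24 h replicate 1.

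From 48 h to 96 h the effect was higher for 10 genes, OAS1, OASL, BST2, ISG15, UBE2L6, PARP9, DTX3L, TRIM14, TRIM25 and LGALS3BP, and lower for IFITM1, against 6.74% higher and 4.20% lower over all genes. The step was largest for OAS1 (1.17 ± 0.25) and BST2 (0.98 ± 0.28), with edgeR adjusted p = 0.00406 and 0.0278, and was 0.43 to 0.52 for the other 8. For IFITM1 it was -1.10 ± 0.35 (edgeR adjusted p = 0.0463). These counts depended on the scaling and on single libraries: 6 higher and 4 lower were called with upper-quartile scaling, 3 and 5 with total-count scaling, and leaving out 1 library gave 3 to 13 higher and 0 to 5 lower. The 10 fell to 3 without wild-type 48 h replicate 2, 4 without knockdown 48 h replicate 1, knockdown 96 h replicate 2 or wild-type 96 h replicate 3, 5 without wild-type 48 h replicate 1, and 6 without knockdown 96 h replicate 1 or wild-type 96 h replicate 2. No gene was called lower in 12 of the 16 fits that left out 1 library, and 5 were without knockdown 48 h replicate 3.

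**Figure D4:**
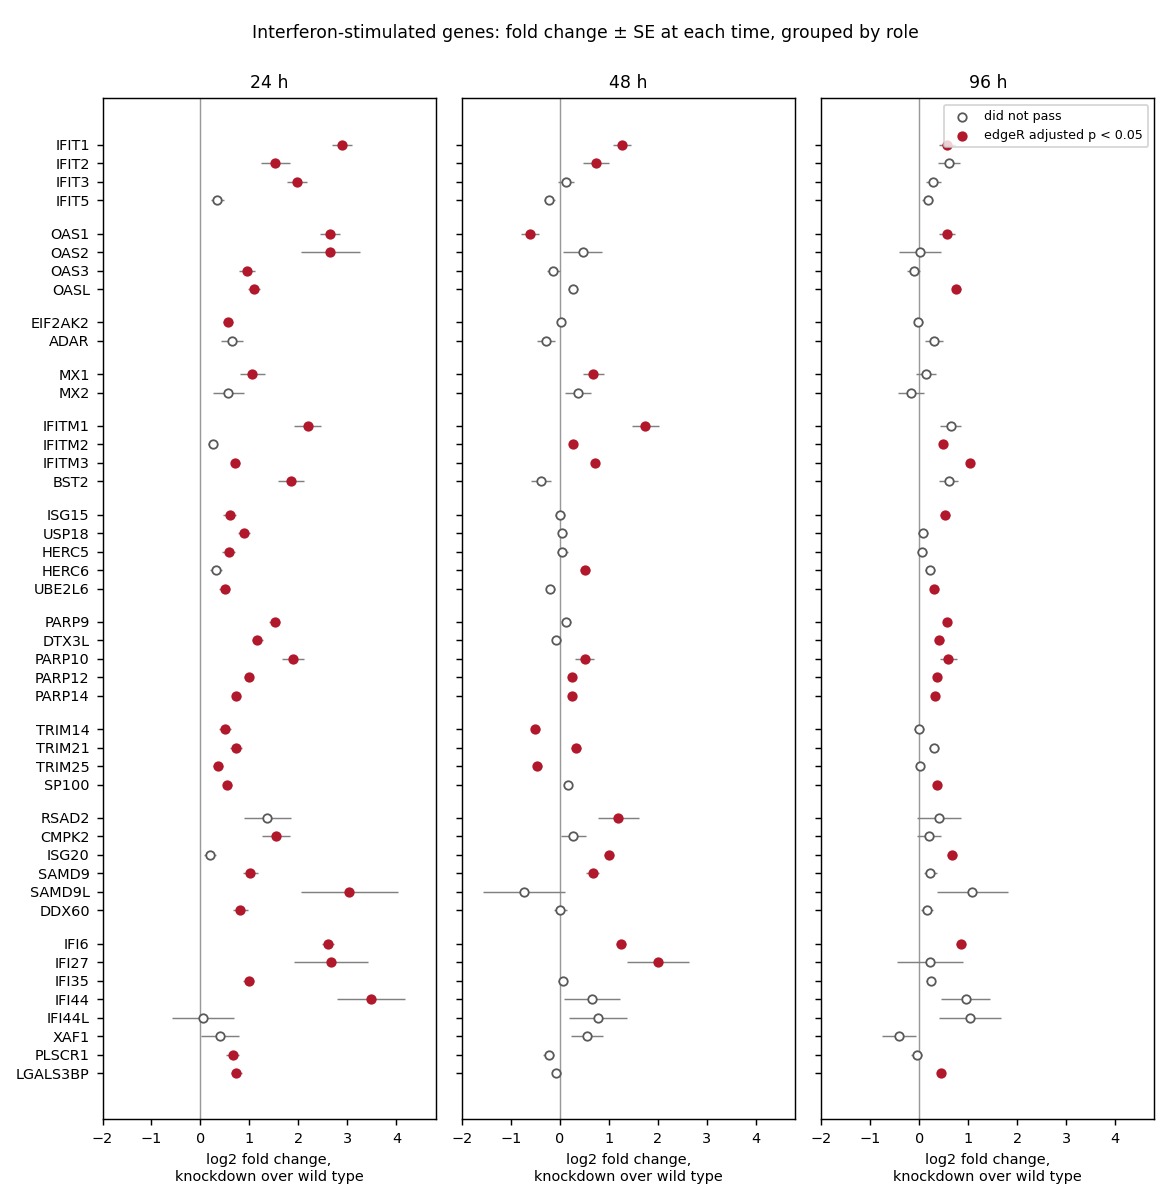
Log2 fold change of knockdown over wild type with its SE for the 44 genes at 24 h, 48 h and 96 h, grouped by role; filled points passed at an edgeR adjusted p below 0.05 and open points did not. At 24 h all filled points lie to the right of 0, at 48 h OAS1, TRIM14 and TRIM25 are filled on the left, and at 96 h all filled points lie on the right; 22 open points and that of LGALS3BP at 48 h change sign under another setting, and their side is not to be read.

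Wild-type cells changed over the same course, so knockdown and wild type are compared within a time. From 24 h to 48 h, 9 of the 44 genes were higher and 14 lower in wild type, while 44.6% of all genes were called, 22.5% higher and 22.1% lower. From 48 h to 96 h 12 were higher and 10 lower, while 46.4% of all genes were called, 23.7% higher and 22.7% lower. The falls to 48 h were largest for ISG20 (-2.24 ± 0.11), IFITM1 (-1.95 ± 0.3), IFI6 (-1.70 ± 0.11) and IFIT1 (-1.69 ± 0.21), with edgeR adjusted p = 1.56e-12, 1.83e-05, 8.89e-11 and 1.07e-06. Each of those was higher again in wild type at 96 h than at 48 h, by 0.82 ± 0.1, 2.11 ± 0.27, 0.49 ± 0.1 and 1.44 ± 0.19 (edgeR adjusted p = 1.08e-06, 1.09e-06, 0.000377 and 1.55e-06). The rises to 48 h were largest for OAS2 (2.02 ± 0.59), IFIT5 (0.90 ± 0.13) and BST2 (0.90 ± 0.24), with edgeR adjusted p = 0.00845, 8.36e-06 and 0.0047. The OAS2 rise starts from 1 and 6 counts in the wild-type libraries at 24 h, so its size is poorly known. The 9 fell to 5 without wild-type 24 h replicate 1, the 14 to 9 without wild-type 24 h replicate 2, and the 10 to 6 without wild-type 48 h replicate 2.

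Levels of different genes were compared per transcript length, as TPM. IFITM3 was the highest of the 44 in each group, with 1700 ± 24.2 TPM in libraries labelled knockdown at 24 h and 878 ± 45.7 TPM in wild type (mean ± SD, n = 2 each). ISG15 had 1040 ± 85.8 TPM in libraries labelled knockdown and 577 ± 115 TPM in wild type at 24 h, and LGALS3BP had 476 ± 7.84 TPM in libraries labelled knockdown and 236 ± 3.31 TPM in wild type. IFI6 had 514 ± 26.7 TPM in libraries labelled knockdown at 24 h, above LGALS3BP, and 71.3 ± 6.25 TPM in wild type, below it. In wild type at 48 h, LGALS3BP (291 ± 9.38 TPM) and ISG15 (273 ± 25.9 TPM) did not differ beyond their SDs (n = 3). At the low end OAS2, IFI44L and SAMD9L stayed below 0.5 TPM on average in every group. IFI44, with the highest fitted log2 fold change of the 44 at 24 h, averaged 2.42 ± 0.432 TPM in libraries labelled knockdown and 0.238 ± 0.225 TPM in wild type at 24 h.

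Of the transcripts of these genes, 179 from 43 genes could be tested one by one. At 24 h, 19 transcripts of 17 genes were higher and none lower (0.375% and 1.01% of all transcripts), at 48 h 12 were higher and 2 lower (1.55% and 3.11%), and at 96 h 4 were higher and none lower (0.224% and 0.302%). The estimated counts of single transcripts carry an error of assignment that the table does not hold, and a transcript that did not pass was not shown to be level. IFI6-202, IFITM3-201 and OASL-201 were called at each time, and IFITM2-202 joined them at 96 h. TRIM14-201 and TRIM25-201, the transcripts that code for protein, were the 2 lower ones at 48 h, with log2 fold changes of -0.53 and -0.48 (edgeR adjusted p = 0.0144 and 0.00916). For OAS1 at 24 h the calls fell on OAS1-203 (2.89, edgeR adjusted p = 0.02) and another coding transcript (3.07, edgeR adjusted p = 0.0217). None of 8 ADAR transcripts passed. Leaving out 1 library gave 6 to 24 higher transcripts at 24 h, 6 of them without knockdown 24 h replicate 1, 7 without wild-type 24 h replicate 2, 9 without knockdown 24 h replicate 2 and 10 without wild-type 24 h replicate 1. At 48 h it gave 7 higher without knockdown 24 h replicate 1 or 2, wild-type 24 h replicate 2, wild-type 48 h replicate 1 or 2 or wild-type 96 h replicate 3, 1 lower without knockdown 48 h replicate 1 or wild-type 48 h replicate 2, and 4 lower without knockdown 48 h replicate 3. At 96 h it gave 2 higher without knockdown 96 h replicate 3.

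The 44 genes lie on 16 chromosomes, and 23 of them lie in 9 clusters of genes less than 300 kb apart. In the IFIT cluster IFIT1 was higher by 2.89 at 24 h and IFIT5, next to it, did not pass (0.35), though it did with upper-quartile scaling (edgeR adjusted p = 0.0231), protein-coding transcripts only (0.0468) and the 24 h libraries alone (0.0117). The difference between these neighbours was not tested. In the OAS cluster on chromosome 12, OAS1, OAS3 and OAS2 all passed at 24 h. Beside IFI44, which passed, IFI44L had 0.594 and 0.455 CPM in libraries labelled knockdown and 0.452 and 0.549 CPM in wild type at 24 h. Genes on the other strand overlap PARP10 (GRINA, 8580 counts per library on average), TRIM14 (NANS, 2100), EIF2AK2 (GPATCH11, 314) and TRIM25 (DGKE, 112), so reads of these pairs are uncertain where strand was not used.

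The other genes of the pathway were read from lists of ligands, receptors and signal carriers, sensors, inhibitors and targets of interferon gamma. Of 20 interferon genes matched, 1 could be tested, IFNE, an epithelial type I interferon, and it rose by 2.53 at 24 h and 2.02 at 48 h on the log2 scale (edgeR adjusted p = 0.00113 and 0.000838). It did not pass at 96 h (edgeR adjusted p = 0.978). The summed level of the ligands was 3.34 to 4.40 TPM in libraries labelled knockdown at 24 h and 0.653 to 0.73 TPM in wild type, and 5 of the 20 were at 0 in every library. Of 12 receptor and JAK-STAT genes 3 were higher at 24 h, 4 at 48 h and 2 at 96 h. The shares of all genes called higher at those times were 5.14%, 14.8% and 5.35%. STAT2 and IRF9, parts of the factor that binds the response element, were higher at all 3 times, by 0.90, 0.79 and 0.46 and by 0.99, 0.86 and 0.53 (edgeR adjusted p between 2.57e-07 and 0.000366).

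Of 13 sensors and interferon regulatory factors tested, 6 were higher at 24 h, 3 were higher and 1 lower at 48 h, and 2 were higher at 96 h. IRF7, which amplifies interferon induction, was higher at all 3 times (0.78, 1.63 and 0.57), with its largest fold change at 48 h (edgeR adjusted p = 0.000169, 9.6e-10 and 0.000987). The RNA sensors IFIH1 and DDX58 were higher at 24 h only (1.34 and 2.03, edgeR adjusted p = 8e-06 and 0.00264), and IRF1 was the gene lower at 48 h (-0.34, edgeR adjusted p = 0.00198). Among 10 feedback inhibitors none was higher and 2 were lower at 24 h, 1 was higher and 4 lower at 48 h, and 1 was lower at 96 h. For these and the other lists, 5.14% of all genes were called higher and 12.4% lower at 24 h. The shares were 14.8% and 18.5% at 48 h and 5.35% and 5.15% at 96 h. PTPN2, a phosphatase that acts on JAK and STAT proteins, was lower at all 3 times (-0.49, -0.32 and -0.27; edgeR adjusted p = 0.00113, 0.00296 and 0.0233). SOCS1, which blocks the receptor kinases, passed at no time (edgeR adjusted p = 0.25, 0.0766 and 0.0608). Of 8 tested genes that lean towards interferon gamma, 2 were higher and 1 lower at 24 h, 4 and 1 at 48 h, and 1 higher at 96 h; WARS, a tRNA synthetase gene induced by interferon gamma, was the lower one at both earlier times (-0.49 and -0.21, edgeR adjusted p = 0.00056 and 0.0267). GBP2, a guanylate-binding protein, was higher at all 3 times (1.87, 1.95 and 1.54; edgeR adjusted p = 0.038, 0.0116 and 0.0396). Its levels were low, with 0.617 ± 0.243 CPM in libraries labelled knockdown at 24 h and 0.168 ± 0.0821 CPM in wild type (SD, n = 2 each), and it reached 10 counts in 8 of the 16 libraries. Those 8 were all knockdown libraries, so its high groups let it pass the filter and nothing is read from its calls. PTPN2 and GBP2 were singled out after their values were seen.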

How the data were processed

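The table deposited by the authors held estimated counts of each transcript as whole numbers, for 16 libraries. Kallisto, DESeq2 and hg19 are named per the submitters' processing notes. Their roles and versions and the strand setting were not given in the sources used here. Identifiers matched GENCODE 29 for 156584 transcripts; the other 9512 were left out. Counts were summed by gene (31496 genes) and edgeR's filterByExpr kept 19836. TMM-scaled CPM and TPM (full transcript length) were computed here from these counts.

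All 6 groups were fitted together with edgeR 4.0.16 (robust quasi-likelihood test, R 4.3.3), without a replicate block, with Benjamini-Hochberg adjustment over all genes. Effects at different times were compared within that fit. Each SE of a log2 fold change is its absolute value divided by the square root of the quasi-likelihood F statistic, and is approximate. Alternatives were other scalings and filters, the test of DESeq2 1.42.0, cyclic loess offsets from limma 3.58.1, protein-coding transcripts only, a replicate block, 1 time only and leaving out libraries. The scripts were tested on simulated data. Intervals for low counts are exact at 95% and cover counting error only.

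The members and lists were chosen with earlier results of these data known. Values in every library are given for up to 4 members per role with the lowest p in any knockdown contrast and for every member whose effect differed between times. From each pathway list up to 4 genes of lowest p per contrast may be named. NORAD and ZNF10 are checks. Promoter sequences are from RefSeq (GRCh38.p14).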

Additional observations from a re-analysis of the deposited data

Results flagged for a closer look

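The knockdown effect of 26 of the 44 genes differed between 24 h, 48 h and 96 h by the joint edgeR test over all genes, which called 9.44% of all genes. The lowest edgeR adjusted p values were 1.13e-06 for OAS1, 1.15e-06 for IFI6, 1.7e-05 for PARP9, 2.8e-05 for IFIT1, 0.00014 for DTX3L and 0.000282 for IFIT3. The next edgeR adjusted p values were 0.000548 for PARP12, 0.000646 for BST2, 0.000883 for IFI35, 0.000946 for TRIM14, 0.00155 for LGALS3BP, 0.00157 for TRIM25 and 0.0022 for USP18. They were 0.00464 for OASL, 0.00533 for PARP10, 0.00567 for PLSCR1, 0.0062 for ISG20, 0.0063 for UBE2L6 and 0.00645 for OAS3 (edgeR adjusted p). The highest among those that passed were 0.0132 for IFITM1, 0.0149 for EIF2AK2, 0.0303 for DDX60, 0.0341 for PARP14, 0.0373 for ISG15, 0.0412 for SAMD9 and 0.0432 for CMPK2 (edgeR adjusted p).

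For 20 of the 26 the effect was lower at 48 h than at 24 h, and for ISG20 it was higher. NORAD was not lower in the libraries labelled knockdown at 24 h. Leaving out 1 library gave 20 to 33 genes whose effect differed between times.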

How the results depend on the processing

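Of 70 single calls, 44 were kept under every alternative run and 26 were lost under at least 1, of which 17 under one other than leaving out libraries. Another 22 fold changes changed direction with no call and are not printed. LGALS3BP at 48 h, uncalled at -0.07, was 0.042 with upper-quartile, 0.065 with total-count and 0.164 with abundance-dependent scaling, where it was called (edgeR adjusted p = 0.041). The cause was not tested. For the 96 h minus 48 h effect (10 higher, 1 lower), 6 and 4 were called with upper-quartile scaling, 3 and 5 with total-count scaling, 6 higher with protein-coding transcripts only, and 0 lower without a filter. Fitting only the libraries of that time gave 9 higher at 48 h. Chosen after seeing the data, 48 h had 7 lower without knockdown 48 h replicate 3 in that fit, and no lower effect (0) was called without the 24 h libraries. For transcripts at 48 h, 7 were higher without a filter and 1 lower with abundance-dependent scaling, added after seeing the data.

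Leaving out 1 library gave 30 to 38 higher at 24 h, 11 to 17 higher and 2 to 7 lower at 48 h, and 11 to 20 higher at 96 h. It gave 0 to 1 higher and 14 to 26 lower effects at 48 h than 24 h, and 3 to 13 higher and 0 to 5 lower at 96 h than 48 h. In wild type it gave 5 to 11 higher and 9 to 16 lower to 48 h, and 11 to 12 higher and 6 to 11 lower to 96 h. Transcripts, left out in this way after seeing the data, gave 6 to 24 higher at 24 h, 7 to 15 higher and 1 to 4 lower at 48 h, and 2 to 6 higher at 96 h.

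With replicate number as a block, 33 genes were higher at 24 h, 13 higher and 3 lower at 48 h and 13 higher at 96 h. The block gave 1 higher and 18 lower effects from 24 h to 48 h, 5 higher and 0 lower from 48 h to 96 h, and 22 that differed between times. Same-numbered samples did not deviate together over all genes (correlations -0.263 to 0.062, 1 of 8 closest to its own number). At 24 h the 2 correlations are 1 value (-0.027), because deviations from the mean of 2 libraries mirror each other. Deviations from means of so few libraries are not independent, so the correlations cannot decide whether the numbers pair libraries. Wild type over time allows no such block.

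Depth limited OAS2, SAMD9L, IFI27 and IFI44, with fewer than 10 counts in wild type at 24 h.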
